A study of Mus musculus with 9 samples.

Results

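Cytokines and chemokines are secreted or membrane-bound proteins by which cells signal injury, call in immune cells and control inflammation, and each acts through receptors on the cells that respond. Chemokines bind receptors that span the membrane several times and steer migrating cells. Interleukins bind receptors that recruit JAK kinases and STAT factors or, in the IL-1 and IL-17 families, adaptors that lead to NF-kappaB, while the tumour necrosis factor (TNF) superfamily pairs membrane-bound ligands with receptors that lead to NF-kappaB or to cell death. In the retina, microglia are the resident immune cells, Müller glia are the main supporting cells, and both are known to take part in the response to dying photoreceptors. The genes described here were chosen by symbol: those starting with Ccl, Ccr, Cxcl, Cxcr, Cx3cl, Tnfsf, Tnfrsf or Il and a digit, without Il6st, Tnfrsf1a, Tnfrsf1b and Tnfrsf10b. Of 21769 genes counted, 162 had such a symbol, and 64 of these had 10 or more counts in at least 3 libraries. These 64 are called members below. They were 11 chemokine ligands, 7 chemokine receptors, 8 interleukins, 21 interleukin receptors and related proteins, 5 TNF superfamily ligands and 12 members of the TNF receptor superfamily.

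The symbols fitted the label with few exceptions. Il18bp is a soluble protein that binds IL-18, and Il1rapl1 and Il1rapl2 are neuronal proteins of the IL-1 receptor family. All 3 were kept with the receptors. Among the genes below the count rule, Il4i1 is an enzyme and had 1 count in all. Genes of the same pathways whose symbols fall outside the rule, such as Csf1r, Osmr and Tnfrsf1a, were read as separate lists.

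Polyadenylated RNA was sequenced from whole retina of wild type, rd10 and GFP mice, the last named in the labels for green fluorescent protein, with 3 libraries a group and 2 retinae in each library. In rd10 mice the gene Pde6b is mutated, a subunit of the rod phosphodiesterase is defective, and the rods die after birth. Retinae came from wild type mice of postnatal day 48 and rd10 mice of day 61, and the labels call the wild type and GFP retinae normal and the rd10 retinae degenerated. A line written as Gg13 at day 42 was taken to be the GFP group, since no other group lacked an age, and neither the promoter of the GFP transgene nor the cells that carry it were given in the labels. Age coincided with group, so age and genotype cannot be told apart. The series' design text calls the replicates biological, and p-values measure the spread between these libraries.

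Library totals lay between 9597635 and 12149448 counts. The labelled tissue held by its markers: all 6 rod genes read were lower in rd10, with Pde6b at 3153 ± 506 CPM (counts scaled to library size) in wild type and 19.5 ± 12.3 in rd10 (SD, n = 3 each). RNA of lens was present in 4 libraries, wild type 2 and 3, rd10 2 and GFP 1, in which the lens crystallin Cryaa stood above 100 CPM. Xist was high only in wild type 2 and rd10 1 (738 and 1407 CPM against at most 2.06 elsewhere). Wild type 3 and GFP 2 stood apart from the other normal libraries. In RNA of whole tissue, fewer cells of a type and less RNA per cell cannot be told apart.

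Of the 63 members tested, 14 were higher and 5 lower in rd10 than in wild type, and 44 were not called (edgeR's quasi-likelihood F-test, Benjamini-Hochberg adjusted p under 0.05 over 14300 genes). Among all genes tested, 14.5% were called higher and 13.9% lower, against 22.2% and 7.94% of the members. The median log2 fold change was 0.68 over the members and -0.03 over all genes. Against GFP, 17 members were higher and 3 lower, or 27.0% and 4.76%, where 15.2% and 15% of all genes were called, and the median was 0.65 over the members and -0.02 over all genes. Both comparisons use the same 3 rd10 libraries. The higher calls include members, Il6ra among them, that met the count rule only through the rd10 libraries and had to be higher there, so the counts and medians are a description. Ccl12, Ccl28 and Il17rb reached 10 counts in 4 libraries, the 3 of rd10 among them, and so met the rule through these too. Scaling by library totals in place of the trimmed mean of M values (TMM) moved the median of all genes to 0.25 against wild type and 0.31 against GFP, and then 23 members were higher and 4 lower against wild type. Of all 14300 genes, 3604 were then higher and 1077 lower against wild type. Without the 4 libraries that held lens RNA, 1 wild type library is left, which shows no spread of its own. Calls against wild type could therefore not be judged in that fit, where all 19 members called against wild type kept their sign. In the same fit all 20 members called against GFP kept their sign and 6 kept their call (Ccl27a, Il17rd, Il1r1, Il1rap, Tnfrsf21 and Tnfsf12), with 4 higher and 3 lower in all. Over all genes that fit called 876 higher and 970 lower of 14705 against GFP, so calls were lost among all genes too.

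**Figure D1:**
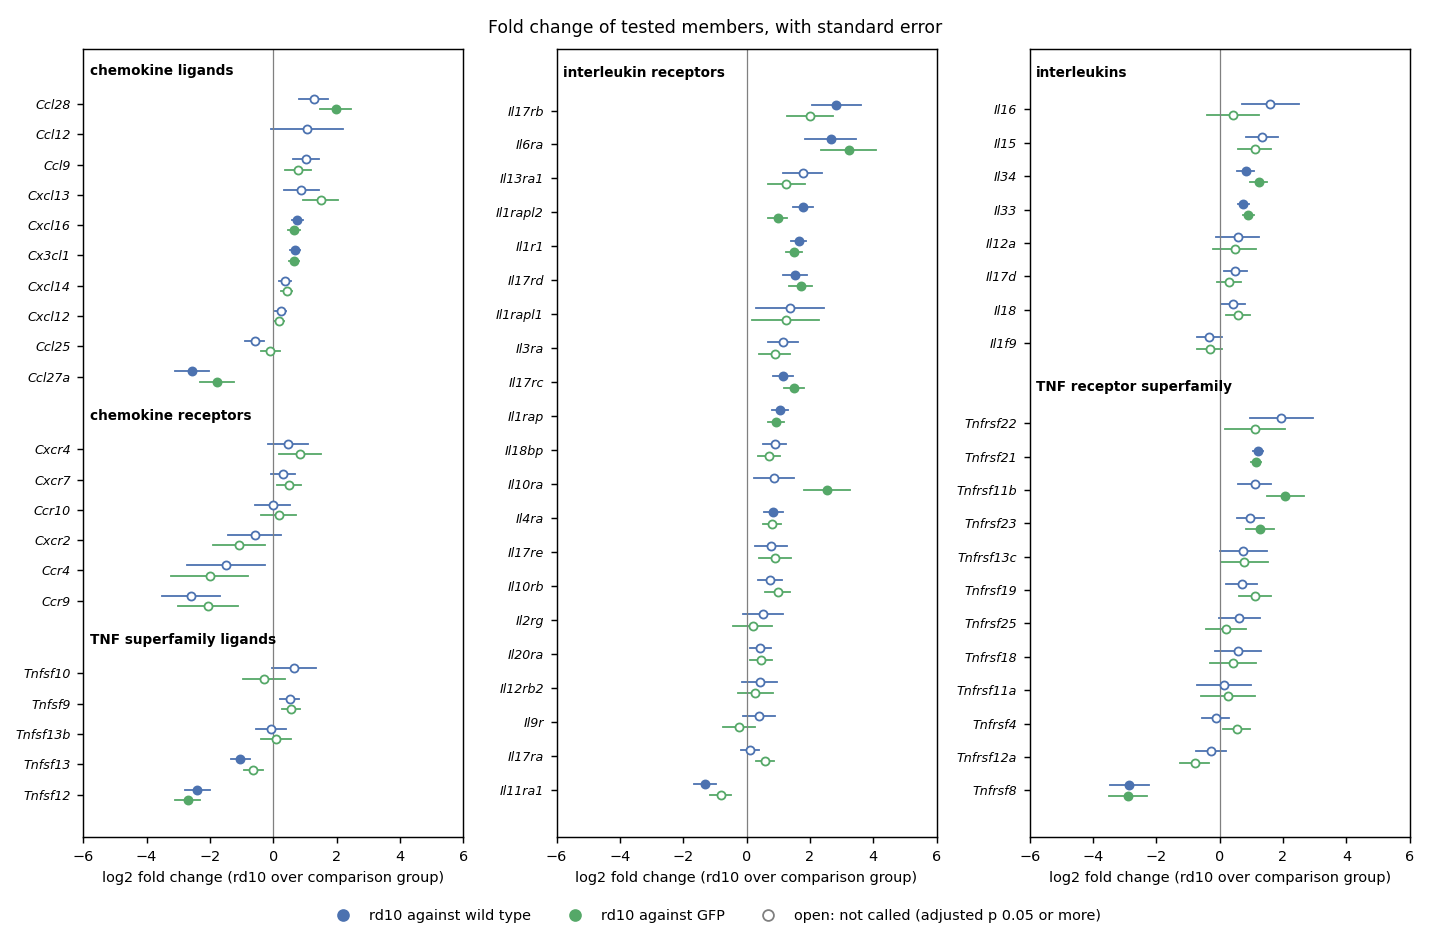
Log2 fold change of tested members, rd10 over wild type (blue) and rd10 over GFP (green), with 1 standard error to each side, grouped by role and ordered by the wild type comparison. Filled points passed an adjusted p of 0.05 in edgeR's test; Ccl12 over GFP is left out because the GFP libraries held no count of it, and the interleukin receptors carry 8 of the 14 higher calls against wild type.

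No member passed between GFP and wild type, both called normal by the labels: edgeR called 0 of 63, with 3 members (4.76%) at an unadjusted p under 0.05, and DESeq2 called 0. All genes gave 0 calls by edgeR in that comparison too (0% higher and 0% lower), with 214 of 14300 (1.50%) at an unadjusted p under 0.05. With 3 libraries a group, the lack of a call does not show that levels were equal. Summed over the 64 members, TMM-scaled CPM came to 564, 629 and 783 in wild type, 797, 802 and 802 in rd10, with 554, 713 and 615 in GFP. The rd10 libraries were close to each other and above every normal library, with wild type 3 the nearest at 783.

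Levels between genes were compared per kilobase of transcript (RPKM). In wild type retina, 6 members reached 10 RPKM and 32 stayed below 1 RPKM. The highest in wild type were Cxcl14 at 43.0 ± 8.16 RPKM, Ccl27a at 43.0 ± 27.7, Tnfsf12 at 41.6 ± 14.2, Cx3cl1 at 30.3 ± 2.84, Il33 at 28.2 ± 5.25 and Il11ra1 at 18.8 ± 7.41 (SD, n = 3). The first 3 did not differ beyond their spread, and neither did Cx3cl1 and Il33. In rd10 the order was Cxcl14 at 55.6 ± 4.80 RPKM, Cx3cl1 at 48.5 ± 3.57, Il33 at 47.3 ± 4.09, Tnfrsf21 at 13.6 ± 0.605 and Cxcl16 at 10.7 ± 1.19, and 25 members stayed below 1 RPKM. Tnfsf12, Il11ra1 and Ccl27a stood at 7.86, 7.61 and 7.27 RPKM there, so that 3 of the 6 most abundant members of wild type retina stood below 10 RPKM.

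**Figure D2:**
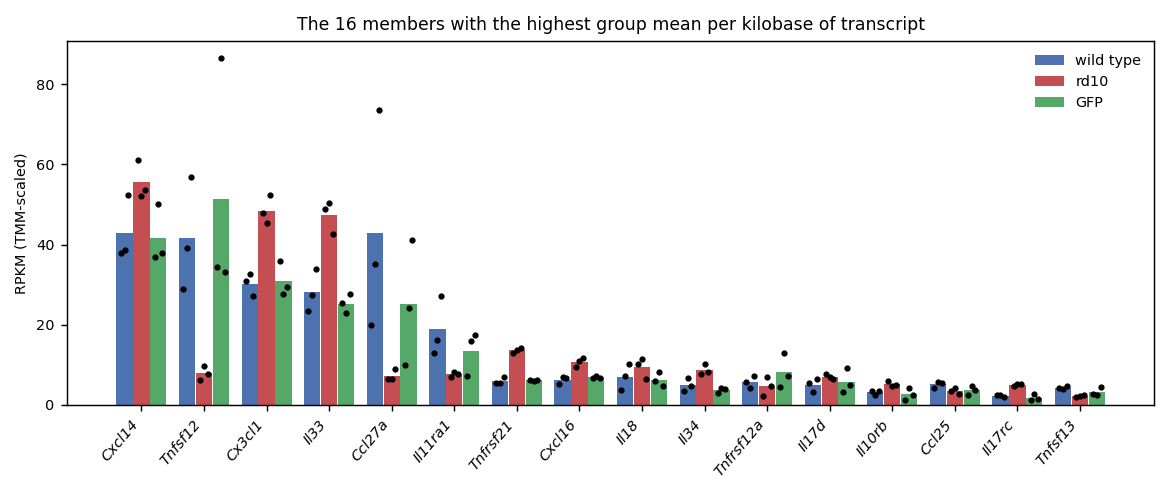
Level per kilobase of transcript (RPKM, TMM-scaled) of the 16 members with the highest group mean, with bars for the mean of 3 libraries and points for the libraries. Tnfsf12, Ccl27a and Il11ra1 stood between 7.27 and 7.86 RPKM in rd10 against 18.8 to 43.0 in wild type, while Cx3cl1 and Il33 rose from 30.3 to 48.5 and from 28.2 to 47.3.

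Among the chemokine ligands, Cx3cl1 and Cxcl16 rose and Ccl27a fell in rd10 against wild type, 2 higher and 1 lower of 10 tested. Of all genes 14.5% were higher and 13.9% lower, and counts among 10 genes cannot be told apart from these shares. Cx3cl1 (mm9 chromosome 8, 97296080 to 97306326, plus strand) encodes fractalkine, a membrane-bound chemokine of neurons whose receptor Cx3cr1 is carried by microglia. Its values were 109, 115 and 95.9 CPM in wild type, 169, 160 and 185 in rd10, against 127, 97.4 and 104 in GFP. All 3 rd10 libraries lay above all 6 normal ones, and the log2 fold change was 0.68 ± 0.15 (SE) against wild type (edgeR adjusted p = 0.00891) and 0.65 ± 0.15 against GFP (edgeR adjusted p = 0.0109). Cxcl16, the other chemokine made with a membrane anchor, stood at 14.2, 18.9 and 17.95 CPM in wild type, 25.4, 29.5 and 31.7 in rd10, with 17.8, 19.3 and 18.2 in GFP. Its groups did not overlap either, with log2 fold changes of 0.76 ± 0.18 and 0.65 ± 0.18 (edgeR adjusted p = 0.0106 and 0.0202). It overlaps Zmynd15 on the opposite strand by 363 bases, and the strand setting of the counting is not given in the sources used here. Against GFP, the call for Cxcl16 ended without rd10 2, rd10 3 or GFP 3 (edgeR adjusted p 0.0558 to 0.0673).

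Ccl27a, a chemokine best known from skin and a ligand of Ccr10, had the lowest rd10 values relative to normal retina among the ligands. It stood at 31.0, 54.5 and 114 CPM in wild type, 10.03, 9.98 and 13.7 in rd10, against 15.3, 37.5 and 63.6 in GFP. The rd10 libraries were the lowest 3 of 9, and the normal ones spread widely, with wild type 3 highest. Its log2 fold change was -2.56 ± 0.54 against wild type (edgeR adjusted p = 0.00627) and -1.78 ± 0.53 against GFP (edgeR adjusted p = 0.0275). Without wild type 3 the value against wild type was -1.93, and the call against GFP ended without rd10 1, rd10 2, rd10 3 or GFP 3 (edgeR adjusted p 0.0612 to 0.116), with Xist as a covariate (0.0648) and under scaling by library totals (0.0524). The gene (mm9 chromosome 4, 41716343 to 41721049, minus strand) shares 4 bases with Il11ra1 on the opposite strand. Both have near-identical copies in the mouse genome, and how reads with several matches were counted is not given in the sources used here, so the values of both are uncertain in that respect.

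Cxcl14, which had the highest level per length in rd10, did not pass the test, at 69.2, 70.8 and 95.8 CPM in wild type, 112, 95.3 and 97.8 in rd10, with 67.4, 91.6 and 69.0 in GFP (edgeR adjusted p = 0.143 and 0.0987). Cxcl12, the ligand of Cxcr4 and of the scavenging receptor Cxcr7, differed by 0.23 ± 0.17 on the log2 scale against wild type (edgeR adjusted p = 0.327). Ccl9 differed by 1.02 ± 0.41 (edgeR adjusted p = 0.0854), Ccl25 by -0.59 ± 0.30 (edgeR adjusted p = 0.167) and Cxcl13, which guides B cells, by 0.89 ± 0.54 (edgeR adjusted p = 0.238). Ccl28, the second ligand of Ccr10, was called only against GFP, at 0.606, 1.06 and 0.602 CPM in wild type, 1.66, 2.09 and 1.77 in rd10, against 0.544, 0.458 and 0.381 in GFP. Its rd10 libraries were above the other 6, with log2 fold changes of 1.27 ± 0.46 against wild type (edgeR adjusted p = 0.0598) and 1.97 ± 0.48 against GFP (edgeR adjusted p = 0.0127). Of the normal libraries only wild type 2 reached 10 counts, at 11. Ccl28 thus met the count rule through the rd10 libraries, and these values are a description.

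Some monocyte-attracting chemokines were read at few counts. Ccl12 had 0, 0 and 14 counts in the wild type libraries, 15, 13 and 10 in those of rd10 and 0 in all 3 GFP libraries. The rd10 libraries overlapped wild type 3, and the difference from wild type did not pass (edgeR adjusted p = 0.509). Against GFP the level was at least 3.29-fold higher, taking 3 counts per library as the floor (edgeR adjusted p = 0.0479), and that call ended when any rd10 or GFP library was left out (edgeR adjusted p 0.0606 to 0.104), under a replicate block (0.0584) and with Xist as a covariate (0.0713). Ccl6, which had 1, 0 and 4 counts in the wild type libraries, 24, 13 and 11 in those of rd10 and 2, 5 and 7 in GFP, met the count rule but was not kept by edgeR's filter, and it lies within a gene on the opposite strand.

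Of the 98 genes below the count rule, 31 had no count in any library and 66 had 1 to 50 counts in all 9 together. Il20rb, with 53 counts, was the exception. Just inside the rule, with exactly 3 libraries at 10 counts, stood 8 genes with totals of at most 96 counts, and Ccl6, Il6ra and Tnfrsf11b reached it in the 3 rd10 libraries only, so that they had to be higher there. Just outside, with 2 such libraries, stood Ccl17, Ccl2, Ccl5, Il20rb and Il28ra with 31 to 53 counts. Il6 had no count in any library, Il1b had 11 in all and Il1a had 39, so that the classical inflammatory interleukins were at or near the limit of these libraries.

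Of the genes below the rule, 4 had 20 or more counts over the rd10 libraries and none in at least 1 normal group. They were chosen after their values were seen and carry no test. Ccl2, which attracts monocytes, had no count in wild type, 10, 19 and 6 in rd10, with 6, 0 and 1 in GFP, at least 3.09-fold higher than wild type. Cxcl1, which attracts neutrophils, had none in the 6 normal libraries and 6, 25 and 4 in rd10, at least 3.12-fold higher than wild type and 3.08-fold higher than GFP. Il28ra, the receptor chain for lambda interferons, had none in the normal libraries and 17, 21 and 4 in rd10, at least 3.73-fold and 3.69-fold higher. Cxcl10, a chemokine induced by interferon, had 2, 4 and 2 counts in the wild type libraries, 7, 19 and 8 in those of rd10 and none in GFP, and it overlaps Art3 on the opposite strand. In all 4 genes rd10 2, one of the libraries with lens RNA, held the highest count, and the part of lens RNA in this was not tested.

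**Figure D3:**
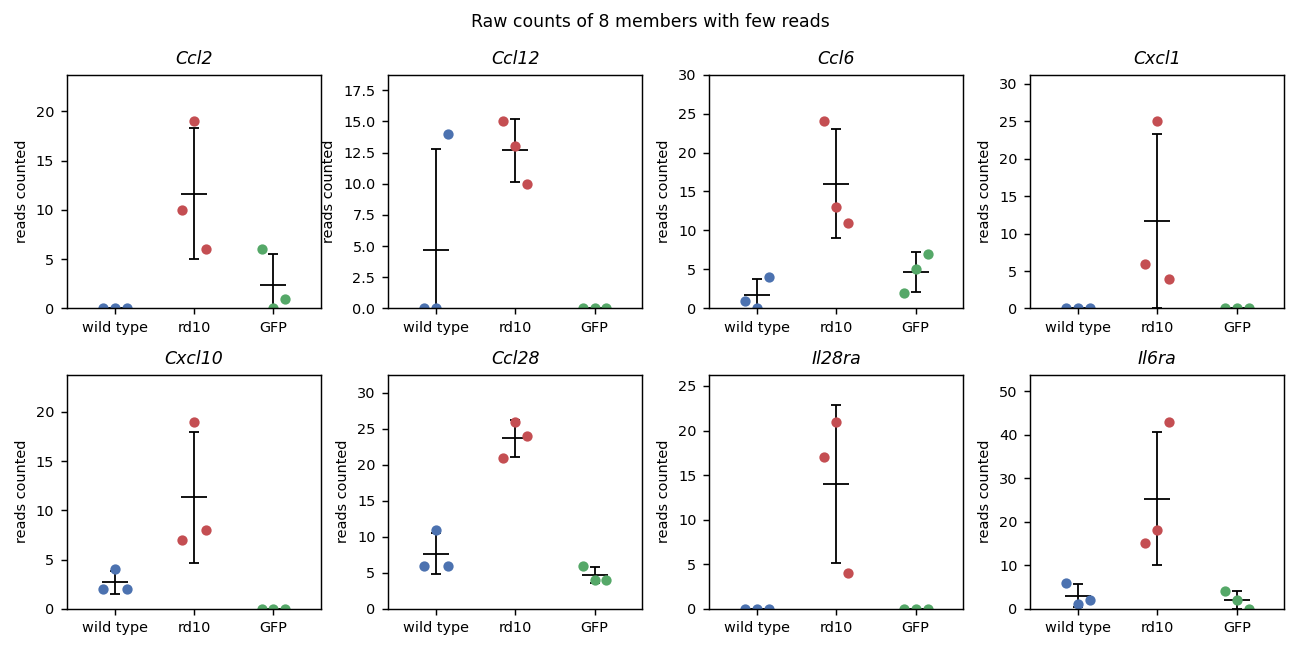
Raw counts per library (y axis, reads) of 8 members or listed genes with few reads, in wild type, rd10 and GFP, with the mean and SD of 3 libraries, cut at 0. Ccl28 lay between 21 and 26 counts in rd10 and at most 11 elsewhere, while Cxcl1, Ccl2, Cxcl10 and Il28ra were spread widely among the rd10 libraries.

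Among the chemokine receptors, Cxcr7, Cxcr4 and Ccr10, the receptor shared by Ccl27a and Ccl28, did not pass. They differed from wild type by 0.32 ± 0.38, 0.46 ± 0.64 and -0.03 ± 0.55 on the log2 scale (edgeR adjusted p = 0.554, 0.614 and 0.975). Cxcr2, the neutrophil receptor for Cxcl1, stood at 4.54, 3.27 and 7.02 CPM in wild type, 3.24, 4.67 and 1.92 in rd10, against 1.36, 18.1 and 1.81 in GFP. GFP 2 was far above the other 8 libraries, and the same library held the highest normal value for 20 of the 64 members. Ccr9 differed by -2.59 ± 0.92 on the log2 scale against wild type (edgeR adjusted p = 0.0560) and Ccr4 by -1.49 ± 1.24 (edgeR adjusted p = 0.385). Cx3cr1, the fractalkine receptor, falls outside the symbol rule. It stood at 1.82, 3.56 and 2.81 CPM in wild type, 10.1, 7.40 and 8.63 in rd10, with 2.54, 1.83 and 2.19 in GFP, higher by 1.67 ± 0.32 and 1.98 ± 0.32 (edgeR adjusted p = 0.00393 and 0.00162). In the list of further chemokine receptors and related genes, 5 genes were tested, among them the member Cxcr7 under a newer symbol, and Cx3cr1 alone was called in each comparison.

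Markers of several cell types moved with these values. Of 12 microglia and macrophage markers, 8 were higher in rd10 in both comparisons, and their sum was 72.9 to 90.0 CPM in wild type, 185 to 195 in rd10 and 64.8 to 95.4 in GFP. Among the 12, Ptprc and Aif1 were at most 0.858 and 0.802 CPM in the normal libraries. Both passed edgeR's filter on low counts only through the rd10 libraries and had to be higher there, so the count of 8 is a description. T and NK cell markers summed to 1.31 to 2.12 CPM in wild type, 2.61 to 3.70 in rd10 and 1.00 to 3.44 in GFP, B cell markers to at most 1.49 and neutrophil markers to at most 0.948 in any library. All 6 Müller glia markers were higher, from 3688 to 5041 CPM summed in wild type to 7849 to 8450 in rd10. All 4 astrocyte markers were higher against wild type and 3 against GFP, summing to 41.7 to 58.0 CPM in wild type, 172 to 247 in rd10 and 48.7 to 54.6 in GFP. Of 5 ganglion cell markers 4 were higher in both comparisons, summing to 768 to 875 CPM in wild type, 1149 to 1326 in rd10 and 708 to 883 in GFP. Of the pigment epithelium markers 2 of 6, and of the endothelial markers 1 of 8, were higher in both comparisons, and 1 of 5 cone markers was lower in both. These last 3 counts are too small to be told apart from the shares of all genes. The part of these cell types in the member values was not tested.

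Il33 and Il34 rose in both comparisons, 2 of the 8 interleukins, where 14.5% and 15.2% of all genes were higher. So small a count cannot be told apart from these shares. Il33 (mm9 chromosome 19, 29999604 to 30035205, plus strand) encodes an alarmin, a nuclear cytokine released by damaged cells, which in retina is known from Müller glia. It stood at 61.2, 71.1 and 88.2 CPM in wild type, 127, 132 and 111 in rd10, against 65.9, 59.5 and 71.9 in GFP. The groups did not overlap, and the log2 fold change was 0.75 ± 0.16 against wild type (edgeR adjusted p = 0.00795) and 0.91 ± 0.17 against GFP (edgeR adjusted p = 0.00291). Its receptor Il1rl1 had 0, 0 and 2 counts in the wild type libraries, 3, 3 and 6 in those of rd10 and 0, 2 and 3 in GFP, below the count rule. Il34, a second ligand of the microglial receptor Csf1r, stood at 6.26, 12.2 and 8.62 CPM in wild type, 14.2, 18.5 and 15.1 in rd10, with 5.44, 7.79 and 7.15 in GFP. All rd10 values were above all normal ones, with log2 fold changes of 0.82 ± 0.27 and 1.23 ± 0.28 (edgeR adjusted p = 0.0446 and 0.00827). The call for Il34 against wild type ended without wild type 1 or 3, any rd10 library or GFP 3 (edgeR adjusted p 0.0529 to 0.124), without wild type 3 and GFP 2 together (0.0652) and with Xist as a covariate (0.0550).

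The other interleukins did not pass. Il18, a cytokine matured by caspase-1, differed by 0.41 ± 0.37 on the log2 scale against wild type (edgeR adjusted p = 0.432), and Il17d by 0.50 ± 0.37 (edgeR adjusted p = 0.338). Il15, which sustains NK and T cells, stood at 1.72, 2.12 and 1.20 CPM in wild type and at 6.56, 3.54 and 2.73 in rd10 (edgeR adjusted p = 0.0718). Il1f9 stood at 3.94, 2.41 and 3.41 CPM in wild type and 2.37, 3.30 and 2.07 in rd10 (edgeR adjusted p = 0.548). Il12a and Il16 differed from wild type by 0.56 ± 0.67 and 1.60 ± 0.91 on the log2 scale (edgeR adjusted p = 0.551 and 0.206).

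The interleukin receptors held the most calls, 8 higher and 1 lower of 21 against wild type and 7 higher and 0 lower against GFP, with median log2 fold changes of 0.89 and 0.93. Of the 9 tested with IL-1 or IL-17 receptor symbols, 6 were higher against wild type (Il1r1, Il1rap, Il1rapl2, Il17rb, Il17rc and Il17rd) and 5 against GFP, and of the other 12 receptors 2 were higher in each, where 14.5% and 15.2% of all genes were. This grouping was made after the values were seen, and the difference between the families was not tested. Il17rb and, among the other receptors, Il6ra met the count rule through the rd10 libraries. Il1r1, the receptor for IL-1 (mm9 chromosome 1, 40281925 to 40373022, plus strand), stood at 7.17, 4.62 and 6.62 CPM in wild type, 20.2, 20.2 and 17.2 in rd10, against 5.71, 6.30 and 8.30 in GFP. The lowest rd10 library was above the highest normal library, and the log2 fold change was 1.65 ± 0.24 against wild type (edgeR adjusted p = 0.000893) and 1.50 ± 0.24 against GFP (edgeR adjusted p = 0.00143). Il1rap, the chain that Il1r1 and the IL-33 receptor share, stood at 14.3, 9.72 and 8.62 CPM in wild type, 24.3, 18.6 and 24.6 in rd10, with 14.1, 8.83 and 12.3 in GFP. It did not overlap between rd10 and the normal groups and rose by 1.05 ± 0.26 and 0.93 ± 0.25 (edgeR adjusted p = 0.0127 and 0.0198). Without wild type 2 or wild type 3 its edgeR adjusted p against wild type was 0.0501 to 0.0503, and against GFP the call ended without rd10 1, rd10 3 or GFP 3 (edgeR adjusted p 0.0533 to 0.0709).

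Il1rapl2, a synaptic protein of the same family, stood at 2.02, 1.54 and 1.50 CPM in wild type, 6.64, 4.67 and 6.12 in rd10, against 2.63, 3.21 and 2.96 in GFP. The rd10 libraries were above all others, with log2 fold changes of 1.78 ± 0.31 against wild type (edgeR adjusted p = 0.00255) and 0.99 ± 0.30 against GFP (edgeR adjusted p = 0.0310). Against GFP the call ended without rd10 1, rd10 3, GFP 1 or GFP 3 (edgeR adjusted p 0.0749 to 0.111), under the replicate block (0.0615) and with Xist as a covariate (0.0697). A further gene, Tex13a, lies on the opposite strand within it and had no count in any library.

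Il17rd, which restrains receptor tyrosine kinase signals as well as IL-17 signals, stood at 2.93, 3.85 and 2.01 CPM in wild type, 7.43, 8.45 and 9.52 in rd10, with 3.27, 1.38 and 3.05 in GFP. Its rd10 values were above all normal values, higher by 1.53 ± 0.37 and 1.71 ± 0.37 on the log2 scale (edgeR adjusted p = 0.0118 and 0.00710). Il17rc, a chain of the receptor for IL-17A and IL-17F, stood at 5.55, 5.58 and 4.31 CPM in wild type, 10.7, 11.8 and 11.7 in rd10, against 2.90, 6.19 and 3.05 in GFP. It rose by 1.15 ± 0.31 and 1.50 ± 0.31 without overlap (edgeR adjusted p = 0.0191 and 0.00581), and against wild type the call ended without wild type 3, rd10 2 or rd10 3 (edgeR adjusted p 0.0515 to 0.0675). Il17ra, the chain shared across the family, differed by 0.12 ± 0.28 (edgeR adjusted p = 0.775).

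Il17rb, a receptor for IL-17B and IL-25, was read at 0.909, 0.192 and 0 CPM in wild type, 2.37, 3.06 and 2.58 in rd10, with 0.907, 0.573 and 0.477 in GFP. Its rd10 libraries stood above the normal ones, with log2 fold changes of 2.83 ± 0.77 (edgeR adjusted p = 0.0199) and 2.01 ± 0.71 (edgeR adjusted p = 0.0545). Of the normal libraries only GFP 1 reached 10 counts. Il17rb thus met the count rule through the rd10 libraries, and these values are a description. The value against wild type was 4.65 without wild type 1, and the call ended without wild type 2, rd10 2 or rd10 3 (edgeR adjusted p 0.0524 to 0.0776).

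Il6ra, the receptor chain for IL-6, stood at 0.606, 0.0962 and 0.201 CPM in wild type, 1.19, 1.45 and 3.17 in rd10, against 0.363, 0.229 and 0 in GFP. It met the count rule only through the rd10 libraries, so that these had to be highest, and its fold changes of 2.65 ± 0.81 against wild type (edgeR adjusted p = 0.0334) and 3.22 ± 0.86 against GFP (edgeR adjusted p = 0.0183) are a description and no independent result. Without wild type 1 the value was 3.64, without GFP 1 it was 4.07 against GFP, and the call against wild type ended without wild type 2 or 3 or any rd10 library (edgeR adjusted p 0.0523 to 0.139) and against GFP without rd10 3 or GFP 3 (edgeR adjusted p 0.0533 to 0.0803). In the fit with a replicate block its edgeR adjusted p against wild type was 0.0552, and without wild type 3 and GFP 2 together it was 0.0660. Il4ra, the receptor chain of IL-4 and IL-13, stood at 10.3, 9.43 and 6.12 CPM in wild type, 16.4, 13.6 and 16.7 in rd10, with 11.2, 5.62 and 9.92 in GFP. It was called against wild type at the edge (0.85 ± 0.29, edgeR adjusted p = 0.0492) and not against GFP (0.79 ± 0.29, edgeR adjusted p = 0.0590), although its rd10 libraries were the 3 highest. Its call ended when any wild type or rd10 library or GFP 3 was left out (edgeR adjusted p 0.0515 to 0.152) and under the replicate block (edgeR adjusted p = 0.0595) and with Xist as a covariate (0.0704).

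Il10ra, the receptor for the anti-inflammatory IL-10 and carried by microglia, was called only against GFP. It stood at 0.707, 0.962 and 1.81 CPM in wild type, 2.13, 2.58 and 1.62 in rd10, against 0.635, 0 and 0.381 in GFP. The rd10 values overlapped wild type 3 (0.86 ± 0.64, edgeR adjusted p = 0.330) and not GFP (2.54 ± 0.72, edgeR adjusted p = 0.0237), while GFP and wild type did not differ past the threshold (edgeR adjusted p = 1). The call against GFP ended without rd10 1, rd10 2 or GFP 3 (edgeR adjusted p 0.0644 to 0.0717), and the value was 3.32 without GFP 1. Il18bp and Il10rb differed by 0.89 ± 0.35 and 0.75 ± 0.39 against wild type and did not pass (edgeR adjusted p = 0.0813 and 0.167). Another 8 receptors, Il13ra1, Il3ra, Il1rapl1, Il17re, Il20ra, Il2rg, Il12rb2 and Il9r, lay between 0.39 and 1.78 on the log2 scale against wild type and between -0.24 and 1.26 against GFP, and none passed. Il13ra1 came nearest (1.78 ± 0.62 against wild type, edgeR adjusted p = 0.0515).

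Of the interleukin receptors only Il11ra1, the receptor of IL-11, was called lower, and only against wild type. It stood at 32.7, 40.7 and 68.2 CPM in wild type, 17.4, 20.8 and 19.2 in rd10, with 17.96, 39.8 and 43.8 in GFP. Its rd10 libraries lay below all wild type libraries and overlapped GFP 1, one of the libraries with lens RNA. The log2 fold change was -1.30 ± 0.34 against wild type (edgeR adjusted p = 0.0177) and -0.82 ± 0.34 against GFP (edgeR adjusted p = 0.0905). The call ended without wild type 3, rd10 1 or rd10 3 (edgeR adjusted p 0.0596 to 0.0715).

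Of the 64 members, 52 had an entry in the RefSeq promoter table of GRCm38.p6, which gives 250 bases before to 50 after each start. Both strands were searched for a kappaB site, the site of NF-kappaB, for a STAT site (TTCNNNGAA), for the core of an interferon response element and for an AP-1 site (TGANTCA). A kappaB match was present in 8 of the 52 members and in 9.55% of all genes in the table. A STAT match was present in 7 members and 9.55% of genes, an interferon element in 3 and 3.99%, and an AP-1 match in 10 and 8.97%. Of the members higher in both comparisons, 9 were in the table, and Il1r1 alone held a kappaB match, while both matched members that were lower in both, Ccl27a and Tnfrsf8, held one. A gene was counted as matched if any of its listed starts held a match. The 250 bases before a start are shown for Il1r1 (chr1:40266336-40266585, plus strand) and for Tnfrsf8 (chr4:145315165-145315414, minus strand). These 2 changed in opposite directions and both hold a kappaB match there, which is in capitals. Il1r1 has a further start upstream, and no kappaB match was found in the bases before it (chr1:40224830-40225079). The match of Il1r1 is on the strand opposite to the gene, and Tnfrsf8 has 2 matches that overlap each other. A match is a run of letters, not a measured site.
Il1r1: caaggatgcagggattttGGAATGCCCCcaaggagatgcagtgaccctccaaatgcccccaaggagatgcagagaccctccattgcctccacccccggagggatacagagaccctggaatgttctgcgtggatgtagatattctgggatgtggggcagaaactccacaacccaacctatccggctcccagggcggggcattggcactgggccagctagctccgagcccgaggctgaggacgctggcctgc
Tnfrsf8: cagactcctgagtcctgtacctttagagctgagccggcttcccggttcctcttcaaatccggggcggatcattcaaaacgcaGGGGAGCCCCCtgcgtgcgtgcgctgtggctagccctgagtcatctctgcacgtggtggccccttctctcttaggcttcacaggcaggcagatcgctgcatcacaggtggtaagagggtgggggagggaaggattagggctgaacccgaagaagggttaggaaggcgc

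In the TNF superfamily, the ligands fell where they were called and the receptors moved both ways. Tnfsf12 (mm9 chromosome 11, 69499742 to 69509600, minus strand) encodes TWEAK, a ligand that acts through Tnfrsf12a. It stood at 41.3, 56.3 and 81.5 CPM in wild type, 9.01, 13.9 and 10.9 in rd10, against 49.4, 124 and 47.5 in GFP. All rd10 libraries were far below all normal ones, and GFP 2 was the highest of all. The log2 fold change was -2.40 ± 0.40 against wild type (edgeR adjusted p = 0.00177) and -2.70 ± 0.40 against GFP (edgeR adjusted p = 0.000875), the latter -2.10 without GFP 2. Its receptor Tnfrsf12a did not pass, at 5.96, 4.33 and 7.72 CPM in wild type, 2.45, 7.40 and 5.09 in rd10, with 4.63, 13.8 and 7.72 in GFP (edgeR adjusted p = 0.691 and 0.212), and it overlaps Hcfc1r1 on the opposite strand by 80 bases.

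Tnfsf13, which encodes the B cell factor APRIL and lies beside Tnfsf12, stood at 6.87, 6.64 and 7.52 CPM in wild type, 3.00, 3.38 and 3.84 in rd10, against 4.53, 4.01 and 7.25 in GFP. Its rd10 libraries were below all others, with log2 fold changes of -1.04 ± 0.29 against wild type (edgeR adjusted p = 0.0243) and -0.63 ± 0.30 against GFP (edgeR adjusted p = 0.128). The call ended when any wild type or rd10 library was left out (edgeR adjusted p 0.0528 to 0.0934) and under scaling by library totals (edgeR adjusted p = 0.0776) or with the trend with transcript length removed (0.0629). Both genes share a listed readthrough gene on the same strand, BC096441, which was counted at 0 in all 9 libraries. Tnfsf9, which overlaps Gm11110 on the opposite strand, and Tnfsf13b, the B cell factor BAFF, differed from wild type by 0.51 ± 0.30 and -0.07 ± 0.47 on the log2 scale and did not pass (edgeR adjusted p = 0.215 and 0.928). Tnfsf10, which encodes the death ligand TRAIL, did not pass either (edgeR adjusted p = 0.504) and was at 11.003 CPM in GFP 2 against at most 2.91 in the other normal libraries.

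Tnfrsf21 had the smallest adjusted p of all members in both comparisons. It encodes death receptor 6, a receptor of neurons and glia known for its part in axon and neuron loss (mm9 chromosome 17, 43153504 to 43226137, plus strand). Its values were 19.9, 19.5 and 24.9 CPM in wild type, 46.9, 49.7 and 51.3 in rd10, with 22.8, 21.7 and 22.3 in GFP. The rd10 libraries were close together and well above the other 6, with log2 fold changes of 1.20 ± 0.16 (edgeR adjusted p = 0.000470) and 1.15 ± 0.16 (edgeR adjusted p = 0.000601).

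Tnfrsf8, which encodes CD30, a receptor best known from activated lymphocytes, had the lowest log2 fold change of all members in both comparisons (mm9 chromosome 4, 144858879 to 144905050, minus strand). It stood at 7.68, 4.43 and 4.31 CPM in wild type, 0.158, 1.05 and 1.03 in rd10, against 9.16, 3.32 and 4.39 in GFP. Every rd10 library was below every normal one, with log2 fold changes of -2.85 ± 0.60 (edgeR adjusted p = 0.00646) and -2.90 ± 0.60 (edgeR adjusted p = 0.00578). T, NK and B cell markers were low in the same normal libraries, as given above, and the cells that held Tnfrsf8 RNA were not tested.

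Tnfrsf11b, which encodes the decoy receptor osteoprotegerin, and Tnfrsf23, a decoy receptor for TRAIL, were called only against GFP. Tnfrsf11b stood at 0.505, 0.481 and 0.602 CPM in wild type, 0.948, 1.61 and 0.885 in rd10, with 0.363, 0.229 and 0.191 in GFP. It too met the count rule only through the rd10 libraries, which therefore had to be highest, and its fold changes of 1.10 ± 0.53 against wild type (edgeR adjusted p = 0.142) and 2.07 ± 0.58 against GFP (edgeR adjusted p = 0.0221) are a description. The second call ended without rd10 1, rd10 2, GFP 2 or GFP 3 (edgeR adjusted p 0.0503 to 0.0936) and without wild type 3 and GFP 2 together (0.0571). Tnfrsf23 stood at 0.909, 2.79 and 2.11 CPM in wild type, 3.16, 4.27 and 3.98 in rd10, against 1.54, 1.95 and 1.24 in GFP. It was highest in rd10 throughout, at 0.97 ± 0.43 (edgeR adjusted p = 0.114) and 1.27 ± 0.44 (edgeR adjusted p = 0.0489). Its call ended without wild type 3, any rd10 library, GFP 1 or GFP 3 (edgeR adjusted p 0.0614 to 0.131), under the replicate block (0.0589), with Xist as a covariate (0.0903), with no filter on low counts (0.0534) and without wild type 3 and GFP 2 together (0.0502). Reads could be split with its near copy Tnfrsf22, which did not pass (edgeR adjusted p = 0.165 and 0.384). The other 6 receptors of this family did not pass either. Tnfrsf19, which is expressed in neural progenitors, differed by 0.69 ± 0.49 and 1.12 ± 0.50 on the log2 scale (edgeR adjusted p = 0.311 and 0.112). Tnfrsf18, Tnfrsf4, Tnfrsf11a, Tnfrsf25 and Tnfrsf13c lay between -0.13 and 0.75 against wild type.

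**Figure D4:**
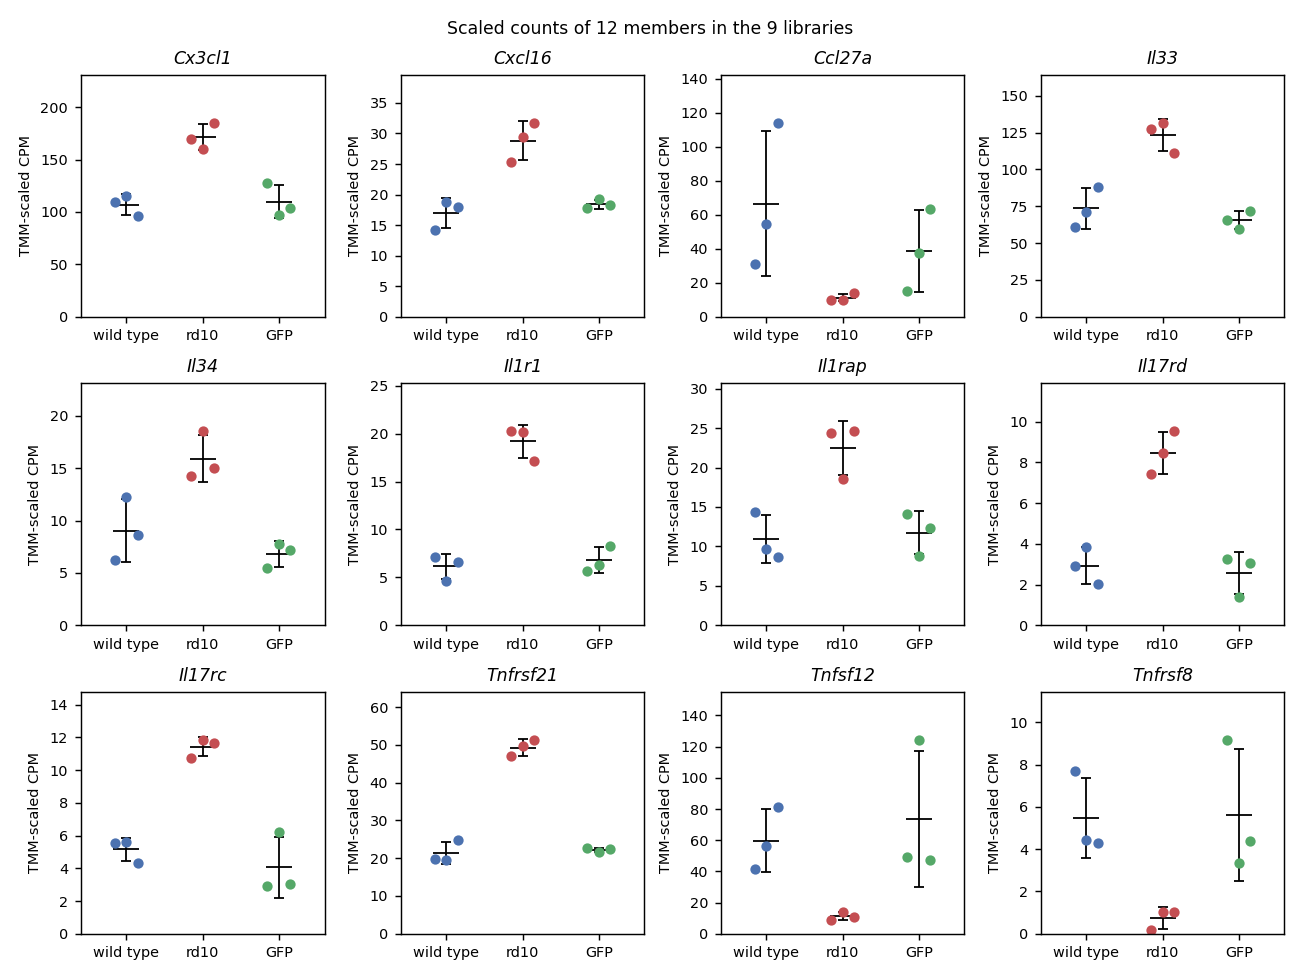
TMM-scaled CPM of 12 members in each of the 9 libraries (points), with the mean and SD of 3 libraries per group. Tnfrsf21, Il1r1, Cx3cl1 and Il33 were higher in all 3 rd10 libraries than in any normal library, and Tnfsf12, Tnfrsf8 and Ccl27a lower, with wide spread in the normal libraries of Tnfsf12 and Ccl27a.

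Lists of further genes of the same pathways are read beside the shares of all genes called, which were 14.5% higher and 13.9% lower against wild type and 15.2% and 15% against GFP. Of 29 tested cytokines and receptors outside the symbol rule, 14 were higher and 2 lower in each comparison (48.3% and 6.9%). Lif, among the 29, was at most 0.573 CPM in the normal libraries. It passed edgeR's filter on low counts only through the rd10 libraries and had to be higher there, so these shares are a description. Osmr, the receptor chain for oncostatin M, stood at 11.1, 8.08 and 9.33 CPM in wild type, 45.0, 45.2 and 57.4 in rd10, with 10.7, 8.60 and 12.01 in GFP (2.37 ± 0.21 and 2.23 ± 0.21 on the log2 scale, edgeR adjusted p = 2.00e-05 and 2.91e-05). Lifr, the receptor chain for LIF, fell by 1.42 and 1.49 on the log2 scale (edgeR adjusted p = 0.000130 and 8.29e-05). Tgfb2 rose by 1.12 ± 0.13 and 0.94 ± 0.13 (edgeR adjusted p = 0.000221 and 0.000661), and Tnfrsf1a, the main TNF receptor, rose by 1.62 ± 0.21 and 1.96 ± 0.21 (edgeR adjusted p = 0.000353 and 9.00e-05). Csf1r, the receptor for IL-34 and a microglia marker, rose by 1.47 ± 0.22 and 1.62 ± 0.23 (edgeR adjusted p = 0.00112 and 0.000593).

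Of 24 adaptors of TNF and IL-1 receptors, 2 were higher and 2 lower in each comparison (8.33% each), shares below those of all genes. Irak2, a kinase recruited by Il1r1, rose by 0.87 ± 0.16 in both (edgeR adjusted p = 0.00322 and 0.00306), and Casp1, the protease that matures IL-1 and IL-18, was read at 2.84, 1.61 and 1.92 CPM in rd10 and at most 0.202 in the normal libraries (edgeR adjusted p = 0.00390 and 0.00263). Casp1 passed edgeR's filter on low counts only through the rd10 libraries and had to be higher there, so its values are a description. Tab3 fell by 1.15 and 1.11 (edgeR adjusted p = 0.000662 and 0.000780) and Birc2 fell by 0.66 and 0.49 (edgeR adjusted p = 0.0106 and 0.0357). Of 18 NF-kappaB genes, 2 were higher and 2 lower against wild type (11.1% each, below the shares of all genes) and 1 higher and 4 lower against GFP (5.56% and 22.2%).

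Tnfaip3, an enzyme that switches off TNF and IL-1 signals to NF-kappaB, showed the greatest drop in that list. It stood at 311, 385 and 214 CPM in wild type, 29.5, 25.1 and 31.3 in rd10, against 396, 258 and 384 in GFP (-3.41 ± 0.26 and -3.60 ± 0.26, edgeR adjusted p = 6.43e-06 and 4.36e-06). Tnip2, which binds the products of Tnfaip3 and Nfkb1, fell by 1.82 and 2.08 (edgeR adjusted p = 0.000444 and 0.000160). Nfkb1, a subunit, rose by 0.84 ± 0.21 against wild type (edgeR adjusted p = 0.0127) and did not pass against GFP (edgeR adjusted p = 0.0511), and Bcl3 rose by 2.21 ± 0.64 and 2.57 ± 0.67 (edgeR adjusted p = 0.0270 and 0.0159). Bcl3 was at most 0.962 CPM in the normal libraries. It passed edgeR's filter on low counts through the rd10 libraries, so its values are a description.

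Of 22 genes of JAK kinases, STAT factors and their inhibitors, 7 were higher and 3 lower against wild type (31.8% and 13.6%) and 8 higher and 5 lower against GFP (36.4% and 22.7%). Stat5a rose by 1.11 ± 0.22 and 1.48 ± 0.22 (edgeR adjusted p = 0.00445 and 0.000904), and Socs3, a feedback inhibitor of IL-6 type receptors, by 1.51 ± 0.38 and 1.69 ± 0.38 (edgeR adjusted p = 0.0137 and 0.00846). Pias3 and Pias1, inhibitors of STAT factors, fell by 1.63 and 0.56 against wild type (edgeR adjusted p = 0.000150 and 0.0137). In GFP against wild type none of these lists held a call by edgeR's test.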

How the data were processed

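Whole retina RNA was counted in 9 libraries, 3 a group. The authors deposited raw counts per gene, 1 file a library, whole numbers that sum to different totals; reads were placed on the mouse build mm9, per the submitters' processing notes. The aligner, annotation, strand setting and treatment of reads with several matches are not given in the sources used here. Low genes were removed with filterByExpr (edgeR 4.0.16, R 4.3.3; minimum count 10, minimum total 15), which left 14300, scaled by TMM and fitted in 1 quasi-likelihood model with 1 mean per group. P-values were adjusted by Benjamini and Hochberg over all genes tested. CPM are TMM-scaled, and RPKM divide them by the summed exon length of GENCODE vM21 (all 64 members matched). SE is the log2 fold change over the root of F. Folds against a group without counts used a floor of 3 counts in each library, which covers counting error only. The members, lists and alternatives were chosen with earlier results of these data known. Named with values were the called members, the 3 highest uncalled ones in each role and members that overlap another gene, and of the pathway lists up to 4 called genes by adjusted p. A few more were added, chosen after their values were seen. The procedure was tested on simulated data. Alternatives were DESeq2 1.42.0, other scalings, no filter, a replicate block, Xist as a covariate, a length trend removed, and fits without single or doubtful libraries. Same-numbered libraries of different groups did not pair: only 4 of 9 correlations of their deviations passed 0.1. Some results that the naming rule covers are not reported here.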

Additional observations from a re-analysis of the deposited data

How the results depend on the processing

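Against wild type, 14 members were higher and 5 lower, and against GFP 17 and 3. All 19 and 20 called members kept their sign in every alternative that gave a value; Ccl12 had none in the fit of only the 2 groups compared. Scaling by library totals gave 23 higher against wild type and 28 against GFP, beside 3604 and 4041 of all 14300 genes. Under TMM scaling 2067 and 2174 of these genes were higher. Without the 4 libraries with lens RNA there were 0 higher and 0 lower against wild type and 4 higher against GFP. Leaving out 1 library at a time gave 9 to 19 higher and 3 to 6 lower against wild type, and 8 to 21 higher and 2 to 4 lower against GFP, where GFP 3 left 8. The lowest counts against wild type came without rd10 2 or rd10 3 (9 higher each) and, for lower calls, without wild type 3, rd10 1 or rd10 3 (3 each). Of the 14437 to 14549 genes tested in these fits, 1269 to 2891 were higher and 1186 to 2530 lower against wild type. Against GFP, 1297 to 2266 were higher and 1305 to 2138 lower. In all of these fits 10 members kept their call against wild type (Ccl27a, Cx3cl1, Cxcl16, Il17rd, Il1r1, Il1rapl2, Il33, Tnfrsf21, Tnfrsf8 and Tnfsf12) and 10 against GFP (Ccl28, Cx3cl1, Il17rc, Il17rd, Il1r1, Il33, Il34, Tnfrsf21, Tnfrsf8 and Tnfsf12). Of these, Ccl28 met the count rule through the rd10 libraries, so its place here is a description. The share of all genes that kept a call in every such fit was not counted, so both lists of members are a description. With a replicate block there were 13 higher and 5 lower against wild type and 14 and 3 against GFP. Of all 14300 genes, 1817 and 1789, and 1996 and 1912, were called in that fit. Correlations between same-numbered libraries ran from -0.372 to 0.357, so the numbers were not read as pairs. DESeq2 gave 17 and 6, and 21 and 3, beside 2529 and 2232 of all 15520 genes and 2578 and 2478 of 15185. No alternative called a member between GFP and wild type. With Xist as a covariate, 12 members were higher and 5 lower against wild type, and 14 higher and 2 lower against GFP. Of all 14300 genes, 1750 and 1732, and 1687 and 1706, were called in that fit. Members near 1 CPM rest on few counts a library, which limits what can be seen of them.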
